A study of Paspalum vaginatum with 72 samples.

Results

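Heat shock proteins are molecular chaperones, and the genes that encode them are among the best known stress-responsive genes of plants. The genes described here were the gene models of seashore paspalum (Paspalum vaginatum, a salt-tolerant warm-season turfgrass) whose Swiss-Prot name contained the words "heat shock". The rule reads the name and no measured value, although this group of genes was taken up with earlier results of these data known. There were 54 such genes among 27743 gene models: 20 small heat shock proteins, 23 proteins of the 70 kDa family and 11 proteins of the 90 kDa family (named heat shock protein 81, 82 or 90). Hsp100 chaperones carry the name Clp in this annotation, so they were not among the 54 and are given with the partner genes.

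Small heat shock proteins bind proteins that are unfolding and hold them in a soluble state without using ATP, and plants have separate classes of them for the cytosol, chloroplast, mitochondrion, peroxisome and other compartments. Proteins of the 70 kDa family fold new and damaged polypeptides in cycles of ATP hydrolysis, some as constitutive "cognate" forms and some as stress-induced forms. The 90 kDa family completes the folding of regulatory proteins such as kinases and receptors. Heat stress transcription factors switch on many of these genes in heat, and other stresses that damage proteins can do so too.

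RNA was sequenced from leaves and roots of the salt-tolerant accession USA17-18 and the salt-sensitive accession USA17-26, grown in hydroponic solution. Salt plants received NaCl up to 400 mM and were sampled at 8 h, 12 h, 24 h, 48 h and 5 days, and control plants received none. Each of the 24 combinations of accession, tissue and time had 3 libraries, 72 in all. A biological replicate pooled several plants. Tolerant and sensitive plants were represented by 1 accession each, so a difference between them is a difference between these 2 plant materials.

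The sample labels put the control at time 0, whereas the methods describe NaCl raised stepwise over days and controls collected on the last day. The concentration reached at each salt time is not given, so time in salt and dose cannot be told apart. No source used here gives the time of day of sampling, so salt and time of day, age or culture time cannot be told apart. Genes named for the circadian clock moved as well. At 12 h 11 of 21 tested were lower and 2 higher in leaves labelled tolerant, against 5.97% and 7.96% of all genes. In sensitive leaves 10 were lower and 1 higher, against 3.56% and 5.38%. The 12 h leaf libraries labelled tolerant carried the pattern of the other accession, as described below. Their part in the results was not tested.

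Values are FPKM (fragments scaled by gene length and by the number mapped in the library), and read depth could not be recovered from them. The summed FPKM of a library ran from 671959 to 774486. Chlorophyll-binding, photosystem and Rubisco small subunit genes, taken as leaf markers, summed to 1598 to 63692 FPKM in leaf libraries and to 14.3 to 1550.2 FPKM in root libraries. Root markers summed to 25 to 303 FPKM in leaves and 194 to 3059 FPKM in roots. All 36 leaf libraries had a higher leaf-marker sum than any root library.

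Genes that were expressed in a single accession in the other tissue were used to check the accession labels, and 6 of 72 libraries carried the pattern of USA17-26 under a USA17-18 label. These were tolerant leaf 8 h replicate 1, all 3 tolerant leaf 12 h libraries, tolerant root 8 h replicate 1 and tolerant root 12 h replicate 1. They are called by their labels here, and counts of members and named values that rest on them are also given without them, from a fit of the other libraries. Without them the tolerant leaf at 12 h had no library, so its values describe "the libraries labelled tolerant leaf 12 h".

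The members lay on all 10 chromosomes and on unplaced sequence, with 16 on chromosome 1. Of the 54, 27 stood in 10 groups of neighbours less than 100000 bp apart. The annotation gave the 2 genes for a 26.7 kDa chloroplast protein, emOS55.430 (chr1:50231189-50231632, minus strand) and emOS55.429 (chr1:50231676-50232014), next to each other, and they may be pieces of a single gene. The models emFS0.194 to emFS0.197 on chromosome 7 form a repeat of a 255 bp and a 1984 bp span, both named heat shock protein 81-1, and reads from such copies may have been split between them. Coordinates are those of the deposited annotation, whose genome build no source used here names. How multiply mapped reads were treated is not given either, so values of single copies in these groups are uncertain.

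In control plants the small class was low. Its 20 members had a median of 2.66 FPKM in tolerant leaves, 1.93 in sensitive leaves, 1.42 in tolerant roots and 0.72 in sensitive roots. The 70 kDa family had medians of 9.82, 14, 18.1 and 26.1 FPKM and the 90 kDa family 21.2, 28.3, 26.5 and 36.4 FPKM in the same order. The highest member in control plants was emFS12.311, a heat shock cognate 70 kDa protein 2 (chr8:35820333-35824390), with 741, 704 and 697 FPKM in tolerant leaves and 2302, 2703 and 2183 FPKM in tolerant roots. Of the comparisons of salt with control, it passed both thresholds in 1, at 24 h in sensitive roots. Its values there were 543, 776 and 639 FPKM against 2504, 2746 and 2316 FPKM in controls (log2 change -1.96, SE 0.27, adjusted p = 1.78e-06, limma). Smaller decreases had an adjusted p of 0.05 or less without reaching the fold threshold, of -1.06, -1.02 and -0.92 in tolerant roots at 8 h, 12 h and 24 h, and of -0.80, -1.25 and -0.95 in sensitive roots at 8 h, 12 h and 48 h. Without the 6 libraries the tolerant values at 8 h and 12 h were -1.24 and -0.99.

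Changes were tested with limma on log2(FPKM + 1), which understates the change of low genes. A gene was tested if it reached 1 FPKM in at least 3 libraries of the tissue, which 48 members did in leaf and 49 in root. A gene was called higher or lower at an adjusted p of 0.05 or less over all genes tested and a log2 change of at least 1.5. The salt times of an accession and tissue share the same 3 control libraries, so their calls are not independent of each other. In all, 5 members were tested in neither tissue and stayed under 0.4 FPKM in every library: emFS4.509 (BIP4), emFS17.13, emOS55.624 and emOS55.625 (heat shock cognate 70 kDa proteins) and emOS91.404 (heat shock protein 81-3). The cognate gene emOS55.623 was tested in root alone.

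**Figure D1:**
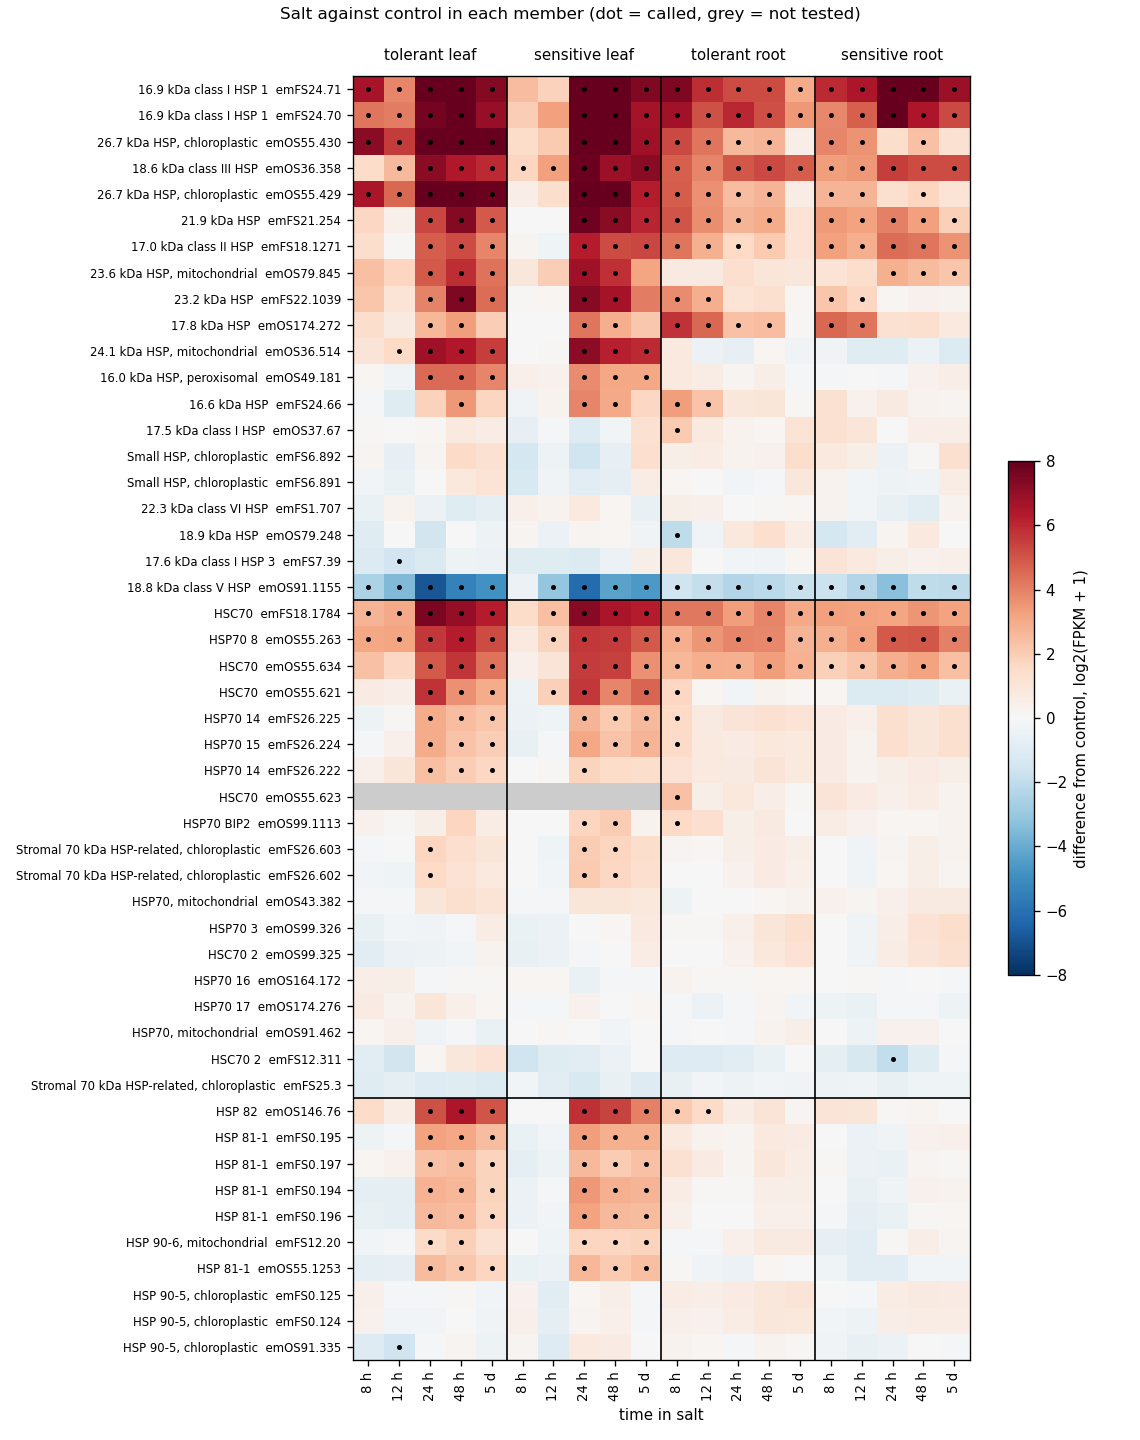
Log2 change of FPKM + 1 from control for the heat shock genes tested (rows, grouped as small, 70 kDa and 90 kDa) at each salt time in the leaves and roots of both accessions (columns), with colours ending at 8 in size. Most of the small class and the 81/82 genes turned red in leaf at 24 h, 48 h and 5 days, and the class V gene emOS91.1155 turned blue in all 4 courses.

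In leaves, heat shock genes rose together at 24 h, 48 h and 5 days of salt in both accessions. At 24 h, 28 of 48 members were higher and 1 lower in tolerant leaves, where 7.6% of all genes tested were higher and 6.1% lower. In sensitive leaves 30 were higher and 1 lower, against 7.21% and 15.5% of all genes. The median log2 change of the members was 2.39 in tolerant and 2.65 in sensitive leaves, while the median of all genes tested was -0.18 and -0.57.

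The rise held at the later times. In tolerant leaves 27 members were higher at 48 h (background 6.67%) and 24 at 5 days (4.73%). Sensitive leaves had 29 at 48 h (4.93%) and 22 at 5 days (3.82%). A single member, emOS91.1155, was lower at each of these times in both accessions, where 4.13% and 4.6% of all genes were lower in tolerant and 3.62% and 3.29% in sensitive leaves.

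Fewer members were called in leaves at the earlier times. At an unadjusted p under 0.05 (limma, either direction), 20 of 48 passed at 8 h and 18 at 12 h in leaves labelled tolerant. In sensitive leaves 5 and 10 did. At 8 h, 6 were higher in tolerant leaves (background 6.9%), and 5 without the library that went against its label. The gene that dropped out was emFS24.70, with a log2 change of 4.30 with that library and 3.90 without the 6, and it also lost the call without tolerant leaf control replicate 2 (3.64) or replicate 3 (3.59). In sensitive leaves 1 was higher at 8 h (background 1.29%), the class III gene emOS36.358, and it was not called without sensitive leaf control replicate 1 (1.42). Without sensitive leaf control replicate 3 or 8 h replicate 1, 2 were called. The class V gene emOS91.1155 was the 1 member lower in tolerant leaves at 8 h (background 5.02%) and in sensitive leaves at 12 h (3.56%). At 12 h, 4 were higher in sensitive leaves (background 5.38%), and 2 without sensitive leaf control replicate 1 or 12 h replicate 3. The libraries labelled tolerant leaf 12 h gave 8 higher and 3 lower (background 7.96% and 5.97%).

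Over the 5 times, 29 members were called higher at 1 or more in tolerant leaves (15.3% of all genes) and 30 in sensitive leaves (10.4%). All 29 of the tolerant set were in the sensitive set, which is 100% of the former and 96.7% of the latter, where over all genes the shares were 56.6% and 83.5%. The exception was emOS99.1113, a BIP2 gene for an Hsp70 of the endoplasmic reticulum, called in sensitive leaves at 24 h and 48 h. Its log2 change at 48 h was 2.05 (SE 0.66, adjusted p = 0.0225) in sensitive and 1.70 (SE 0.66, adjusted p = 0.0564) in tolerant leaves. The sensitive call at 48 h was lost without sensitive leaf control replicate 1 (2.05) or replicate 2 (2.04), or without 48 h replicate 2 (1.67) or replicate 3 (1.43).

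Leaf marker genes also moved. They summed to 48150.2 to 63692 FPKM in tolerant control leaves, 2737 to 4131 FPKM at 8 h and 13606 to 18921 FPKM at 24 h. At 48 h the sums were 20514 to 42764 FPKM. Of 23 tested, 21 were lower at 8 h (5.02% of all genes) and 13 at 24 h (6.1%). The sums at 12 h were lowest in both accessions by label, with 1598 to 3568 FPKM in leaves labelled tolerant and 1663 to 2218 FPKM in sensitive leaves. In sensitive leaves the sums were 16361 to 42798 FPKM in controls, 7625 to 10200.0 FPKM at 24 h and 13982 to 33644 FPKM at 48 h. There 12 of 23 were lower at 24 h (15.5% of all genes) and none at 48 h (3.62%, limma, with 2 at an unadjusted p under 0.05). Their part in the leaf result was not tested. In bulk tissue, fewer cells of a type and less RNA per cell cannot be told apart.

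**Figure D2:**
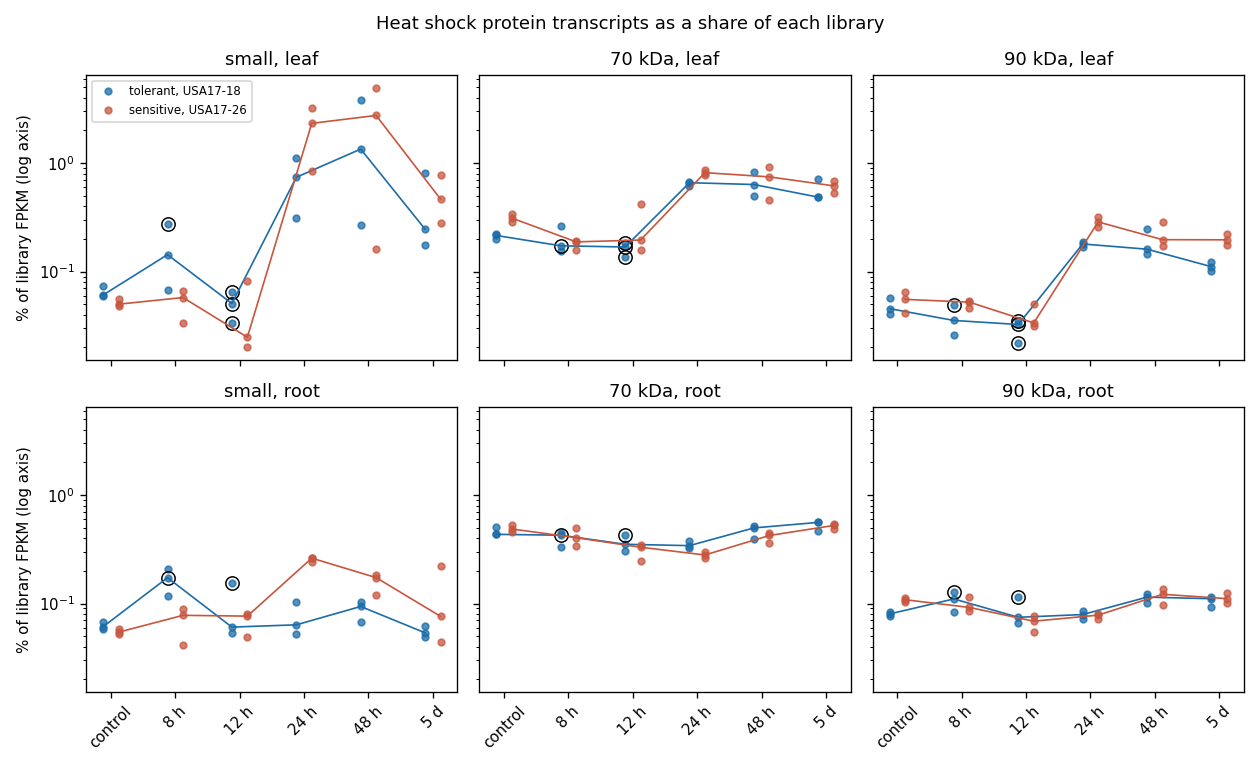
Share of each library's summed FPKM (percent, log axis) held by the small, 70 kDa and 90 kDa heat shock genes at control and each salt time, in leaves and roots. Points are libraries, lines join the group medians, and black rings mark the 6 libraries that went against their accession label. In leaf the small class held under 0.1% of the FPKM in all controls and at least 0.162% in every library from 24 h on.

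The small heat shock proteins held 0.0599, 0.0608 and 0.0739% of the summed FPKM in the 3 tolerant control leaves. At 24 h of salt the shares were 0.311, 0.74 and 1.11%, and at 48 h they were 0.268, 1.35 and 3.84%. In sensitive leaves they rose from 0.0484, 0.05 and 0.0562% in controls to 0.84, 2.33 and 3.19% at 24 h and 0.162, 2.75 and 4.95% at 48 h. No library from 24 h on overlapped the controls, and the replicates at 48 h differed among themselves by more than 10-fold. All 3 classes together made up 0.791, 3.69 and 6.14% of the FPKM in sensitive leaves at 48 h.

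Of the 20 small class members, 12 were higher at 24 h in tolerant leaves and 13 in sensitive leaves. The highest of them was emFS24.71, a 16.9 kDa class I protein of the cytosol (chr3:5378627-5379493). Its tolerant leaf values were 46, 0.32 and 0 FPKM in controls, 218, 1553 and 2994 at 24 h and 4507, 9745 and 409 at 48 h. Its sensitive leaf values were 5.98, 1.31 and 56.1 FPKM in controls, 2571, 5249 and 8408 at 24 h and 495, 9509 and 14817 at 48 h. Salt and control libraries did not overlap at either time. The log2 change at 48 h was 9.37 (SE 1.53, adjusted p = 2.79e-05) in tolerant leaves, and at 24 h it was 8.96 (SE 1.53, adjusted p = 2.59e-05) in sensitive leaves (limma). The neighbouring 16.9 kDa gene emFS24.70 changed by 8.74 and 9.29 at the same times.

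The chloroplast protein gene emOS55.430 had the largest log2 change of any member. Tolerant control leaves held 0.44, 0.15 and 0.14 FPKM and sensitive control leaves 0.55, 0.24 and 2.94 FPKM. At 24 h these were 348, 1062 and 1537 FPKM in tolerant and 663, 4461 and 5037 FPKM in sensitive leaves. The log2 change was 10.25 (SE 1.29, adjusted p = 6.26e-07) at 48 h in tolerant leaves and 10.29 (SE 1.29, adjusted p = 3.24e-07) at 24 h in sensitive leaves. The adjacent emOS55.429 changed by 9.54 and 9.38.

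Both mitochondrial small proteins rose as well. The 24.1 kDa gene emOS36.514 went from 1.36, 1.89 and 1.48 FPKM in tolerant control leaves to 308, 319 and 240.3 FPKM at 24 h, a log2 change of 6.81 (SE 0.53, adjusted p = 7.52e-11). In sensitive leaves it went from 0.8, 0.82 and 3.87 to 409.5, 357 and 324 FPKM, a log2 change of 7.17 (SE 0.53, adjusted p = 2.92e-11). The replicates of this gene were close together at 24 h, unlike those of the class I genes. The 23.6 kDa gene emOS79.845 changed by 5.93 in tolerant leaves at 48 h and 6.79 in sensitive leaves at 24 h. A peroxisomal 16.0 kDa gene, emOS49.181, changed by 4.51 and 3.76 at 24 h.

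Other small class genes were low before salt. For emFS22.1039, a 23.2 kDa protein, all 3 tolerant control leaves were listed at 0, and the 48 h values were 328, 963 and 16.3 FPKM. Its log2 change on the FPKM + 1 scale was 7.46 (SE 1.57, adjusted p = 0.000629), which is not a fold against 0. The 21.9 kDa gene emFS21.254 had 0, 0.02 and 0.11 FPKM in sensitive control leaves and 132, 279 and 313 FPKM at 24 h, a log2 change of 7.77 (SE 1.03, adjusted p = 8.09e-07). Class III is known for a nuclear location in Arabidopsis, and its gene emOS36.358 went from 0.27, 0.7 and 2.64 to 500.1, 525 and 375 FPKM in sensitive leaves, a log2 change of 7.86 (SE 0.34, adjusted p = 4.09e-16). In tolerant leaves at 24 h its log2 change was 7.22. The class II gene emFS18.1271 changed by 4.85 in tolerant and 6.27 in sensitive leaves at 24 h.

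The small class also held the member that fell most. The class V gene emOS91.1155 (chr2:6262589-6263121) had 426, 364 and 364 FPKM in tolerant control leaves, above every other small class member there. It had 49.5, 88.5 and 62.1 FPKM at 8 h and 1.02, 1.55 and 6.07 FPKM at 24 h. In sensitive leaves it had 274, 300.2 and 262 FPKM in controls, 252, 211 and 156 at 8 h and 4.79, 0.99 and 4.32 at 24 h. No library at 24 h overlapped the controls. The log2 change at 24 h was -6.86 (SE 0.49, adjusted p = 1.46e-11) in tolerant and -6.15 (SE 0.49, adjusted p = 1.31e-10) in sensitive leaves. Among all 54 members it was the only gene called lower in all 4 courses of accession and tissue, and at 8 h in sensitive leaves its log2 change of -0.46 was not called.

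Several small class genes were not called in leaf. The 17.5 kDa class I gene emOS37.67, the 18.9 kDa gene emOS79.248, the class VI gene emFS1.707 and the chloroplast genes emFS6.891 and emFS6.892 passed the test at no leaf time in either accession. The 17.6 kDa class I gene emFS7.39 was lower in the libraries labelled tolerant leaf 12 h alone, with a log2 change of -1.52 (SE 0.54, adjusted p = 0.0241). That call was lost without tolerant leaf control replicate 1 (log2 change -0.92) and without 12 h replicate 2 or replicate 3.

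**Figure D3:**
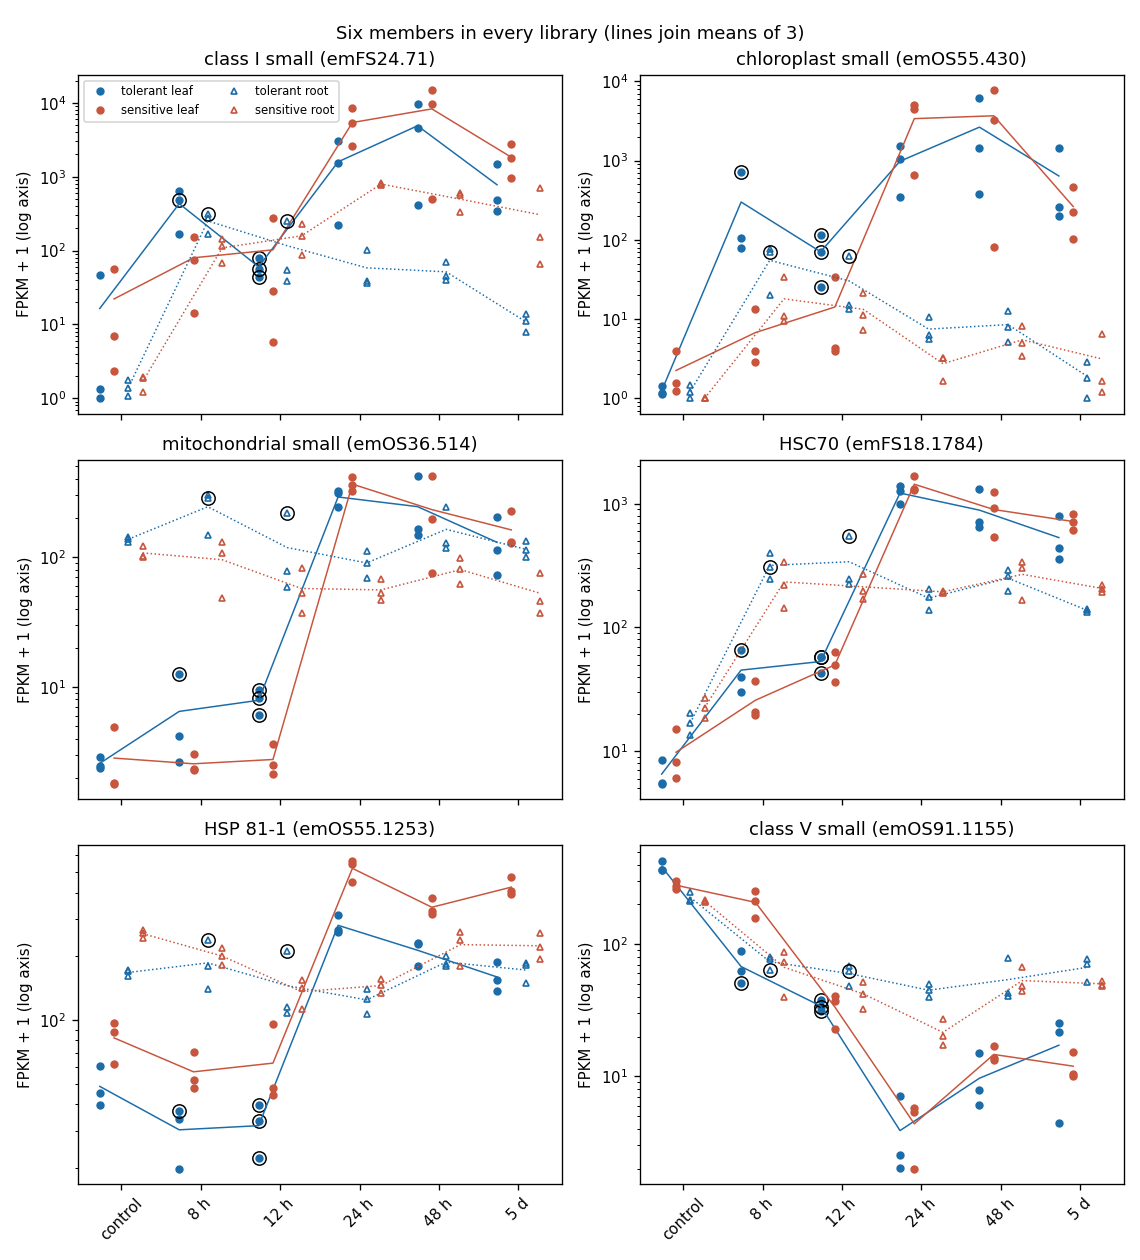
FPKM (log axis of FPKM + 1) of 6 heat shock genes in every library at control and each salt time, in leaves and roots of both accessions, with a scale of its own in each panel: the class I gene emFS24.71, chloroplast emOS55.430, mitochondrial emOS36.514, cognate emFS18.1784, cytosolic emOS55.1253 and class V emOS91.1155. Points are libraries, lines join group means, and black rings mark the 6 libraries that went against their label. The mitochondrial gene emOS36.514 was already above 90 FPKM in every root control and was called higher in leaf alone.

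In the 70 kDa family, 9 of the 18 members tested were higher in tolerant leaves at 24 h and 10 in sensitive leaves. The strongest was emFS18.1784, a heat shock cognate 70 kDa protein (chr3:39535384-39539170). It was low in control leaves, with 7.55, 4.57 and 4.47 FPKM in tolerant and 5.04, 7.12 and 14.2 FPKM in sensitive plants. At 24 h it had 1393, 1272 and 987 FPKM in tolerant and 1318, 1687 and 1298 FPKM in sensitive leaves. These values did not overlap the controls, and the log2 change was 7.56 (SE 0.37, adjusted p = 6.73e-15) and 7.30 (SE 0.37, adjusted p = 1.66e-14).

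Another cognate gene, emOS55.621, went from 6.09, 4.54 and 5.29 to 356, 385 and 309 FPKM in tolerant leaves at 24 h (log2 change 5.80, SE 0.56, adjusted p = 4.72e-09). In sensitive leaves its log2 change was 5.67 (SE 0.56, adjusted p = 7.28e-09). The Hsp70-8 gene emOS55.263 changed by 6.29 in tolerant leaves at 48 h and 5.66 in sensitive leaves at 24 h, and the cognate gene emOS55.634 by 5.73 and 5.57. The genes named Hsp70-14 or Hsp70-15, which in Arabidopsis belong to the Hsp110 group of nucleotide exchange factors, changed by 2.41 (emFS26.222), 2.98 (emFS26.225) and 2.98 (emFS26.224) in tolerant leaves at 24 h. Neighbouring stromal Hsp70 models of the chloroplast, emFS26.602 and emFS26.603, changed by 1.60 and 1.73 in tolerant and 2.11 and 2.05 in sensitive leaves. The other stromal gene, emFS25.3, was not called, with log2 changes of -1.03 and -1.23.

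The abundant cognate gene emFS12.311 was not called in leaf, with values of 762, 700.0 and 946 FPKM at 24 h against 741, 704 and 697 FPKM in tolerant controls, and those ranges overlapped. Its means moved more at other times. They went from 713.9 FPKM in controls to 1922 FPKM at 5 days in tolerant leaves, and from 1332 to 449.4 FPKM at 8 h in sensitive leaves. The mitochondrial Hsp70 genes emOS43.382 and emOS91.462 were not called in any course. Neither were Hsp70-16 (emOS164.172), Hsp70-17 (emOS174.276), Hsp70-3 (emOS99.326) and the cognate gene emOS99.325.

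In the 90 kDa family, 7 of the 10 members tested were higher at 24 h in both accessions. Of these, 5 carry the name heat shock protein 81-1, a cytosolic Hsp90. The gene emOS55.1253 (chr1:43914909-43918730) went from 38.8, 44.3 and 59.4 to 311, 261 and 265 FPKM in tolerant leaves at 24 h. In sensitive leaves it went from 61.1, 86.8 and 95.8 to 548, 564 and 447 FPKM. Neither pair of ranges overlapped, and the log2 change was 2.55 (SE 0.26, adjusted p = 1.24e-08) and 2.68 (SE 0.26, adjusted p = 5.28e-09). The other 4 HSP81-1 models (emFS0.194 to emFS0.197) changed by between 2.36 (emFS0.197) and 3.22 (emFS0.195) in tolerant leaves and between 2.61 and 3.44 (emFS0.194) in sensitive leaves.

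Among the 90 kDa genes, HSP82 (emOS146.76) was nearly silent before salt. It stayed at or under 0.12 FPKM in all 6 control leaves and had 96.8, 343 and 24.5 FPKM at 48 h in tolerant leaves (log2 change 6.47, SE 1.06, adjusted p = 2.94e-05) and 19.4, 111 and 95.3 FPKM at 24 h in sensitive leaves (log2 change 5.86, SE 1.06, adjusted p = 5.34e-05). The mitochondrial Hsp90 gene emFS12.20 changed by 1.56 and 1.70 at 24 h, and the tolerant call was lost without tolerant leaf control replicate 1 (1.30) or 24 h replicate 3 (1.44). The chloroplast Hsp90 genes emFS0.124, emFS0.125 and emOS91.335 were not higher at any leaf time. The gene emOS91.335 was lower in the libraries labelled tolerant leaf 12 h, with a log2 change of -1.58 (SE 0.29, adjusted p = 8.25e-05). That call was lost without tolerant leaf control replicate 3 (log2 change -1.45) or 12 h replicate 2 (-1.30).

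Among the genes called higher in tolerant leaves, 13 of 29 had their highest mean FPKM at 24 h and 16 at 48 h. In sensitive leaves 18 of 30 peaked at 24 h, 11 at 48 h and 1 at 5 days. At 5 days 24 and 22 members were still called higher. The gene emOS55.430 had 221, 464 and 102 FPKM at 5 days in sensitive leaves, below its 24 h values and above every control.

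**Figure D4:**
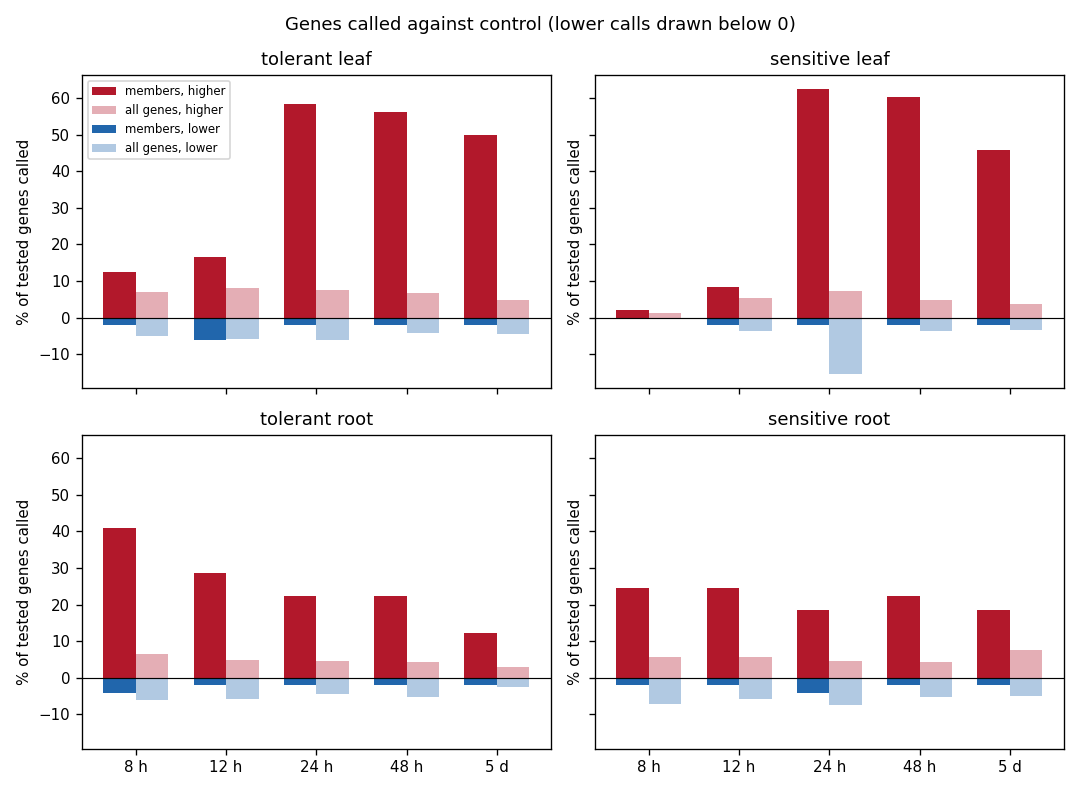
Percent of the heat shock genes tested (dark bars) and of all genes tested (pale bars) that limma called higher (red, above 0) or lower (blue, drawn beneath 0) than control at each salt time, for each accession and tissue. In sensitive leaves the members called higher step up from 4 at 12 h to 30 at 24 h, and in tolerant roots they are most at 8 h, with 20.

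In roots more members were called than in leaves at 8 h and 12 h and fewer from 24 h on, and most were of the small class and the 70 kDa family. In tolerant roots 20 of 49 members were higher and 2 lower at 8 h, against 6.53% and 6.16% of all genes tested. The count then ran through 14 at 12 h (4.73%), 11 at 24 h (4.6%), 11 at 48 h (4.35%) and 6 at 5 days (2.99%). Without the 8 h and 12 h libraries that went against their labels, 18 were higher at 8 h and 14 at 12 h. The genes that lost the 8 h call were emFS26.224, with a log2 change of 1.31 (adjusted p = 0.000347) against 1.53, and emOS146.76, with 1.49 (adjusted p = 0.0003) against 2.11, so both missed the fold threshold alone. At 12 h emOS146.76 lost its call (0.72, adjusted p = 0.0705) and the chloroplast gene emFS6.892 gained it, with a log2 change of 1.78 (adjusted p = 0.0236).

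Sensitive roots had 12 members higher at 8 h (background 5.56%), 12 at 12 h (5.66%), 9 at 24 h (4.51%), 11 at 48 h (4.15%) and 9 at 5 days (7.67%). The median log2 change of the members in roots was between 0.08 and 0.81 over the 10 comparisons. Over all times, 20 members were called higher in tolerant roots (9.77% of all genes) and 13 in sensitive roots (11.9%). They shared 12, which is 60% of the tolerant and 92.3% of the sensitive set, where over all genes the shares were 70.6% and 58.1%. The sensitive set added the mitochondrial gene emOS79.845. These sets were drawn with all libraries. Without the 6 libraries emFS26.224 and emOS146.76 lost their calls in tolerant roots, and emFS6.892 was called at 12 h.

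In sensitive roots at 5 days the leaf markers summed to 97.5 to 1550.2 FPKM, against 32.5 to 52.5 FPKM in the controls. The sums were 1550.2, 343 and 97.5 FPKM in replicates 1 to 3, where the heat shock genes held 0.6448, 0.7405 and 0.8464% of the summed FPKM. Sums of 239.6, 271.6 and 254.6 FPKM were seen in sensitive root 8 h replicate 1, sensitive root 48 h replicate 3 and tolerant root 5 day replicate 3. The part of these leaf markers in the root results was not tested.

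The small class led in roots too. The 16.9 kDa gene emFS24.71 had 0.75, 0.37 and 0.06 FPKM in tolerant control roots, 312, 169 and 271 at 8 h and 37.8, 99.3 and 34.8 at 24 h. In sensitive roots it had 0.91, 0.94 and 0.2 FPKM in controls, 65.8, 143 and 114 at 8 h and 798, 817 and 768 at 24 h. Tolerant roots were thus high at 8 h and lower afterwards, while sensitive roots were highest at 24 h. The log2 change was 7.48 (SE 0.62, adjusted p = 5.23e-10) in tolerant roots at 8 h and 8.92 (SE 0.62, adjusted p = 1.54e-11) in sensitive roots at 24 h. Its neighbour emFS24.70 changed by 6.71 and 8.06 in the same comparisons. Without the libraries that went against their labels the tolerant 8 h changes were 7.30 (emFS24.71) and 6.72 (emFS24.70).

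A 17.8 kDa gene, emOS174.272 (chr4:6500777-6501736), was higher in roots than in leaves at 8 h. It had 71.1, 63.4 and 133 FPKM in tolerant and 11.2, 26.8 and 51.5 FPKM in sensitive roots at 8 h, against at most 1.3 FPKM in any root control. In leaf at 8 h it had 7.31, 0.04 and 1.21 FPKM in tolerant plants and 0.02, 0.21 and 0.09 FPKM in sensitive plants. The root log2 change at 8 h was 5.81 (SE 0.52, adjusted p = 2.21e-09) in tolerant and 4.56 (SE 0.52, adjusted p = 9.85e-08) in sensitive plants. The 21.9 kDa gene emFS21.254 changed by 5.03 in tolerant roots at 8 h, and the chloroplast gene emOS55.430 by 5.29. Without the library that went against its label these were 5.21 and 5.02, and emOS174.272 changed by 5.93 in tolerant roots.

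The class III gene emOS36.358 stayed high in roots to the end. It had 0.84, 1.26 and 0.99 FPKM in tolerant control roots and 59, 63.4 and 46.8 FPKM at 5 days, with the largest log2 change at 48 h, 5.26 (SE 0.39, adjusted p = 8.12e-11). In sensitive roots it changed by 5.52 (SE 0.39, adjusted p = 2.59e-11) at 24 h. The class II gene emFS18.1271 changed by 4.45 in sensitive roots at 24 h. By contrast the class V gene emOS91.1155 fell in roots, from 208, 216 and 209.6 to 16.3, 26 and 19.2 FPKM at 24 h in sensitive plants (log2 change -3.33, SE 0.25, adjusted p = 7.24e-11) and by a log2 change of -2.34 (SE 0.25, adjusted p = 5.07e-08) in tolerant plants. It was called lower at all 5 times in both accessions, and lost the call in sensitive roots at 8 h without 8 h replicate 3 (-1.41). Beside it, the background lower at 12 h, 24 h, 48 h and 5 days was 5.95%, 4.5%, 5.39% and 2.57% in tolerant roots. In sensitive roots it was 7.35% at 8 h and then 5.78%, 7.39%, 5.21% and 4.96%. The 18.9 kDa gene emOS79.248 was lower in tolerant roots at 8 h, at -2.01 (SE 0.38, adjusted p = 9.97e-05), and at -1.88 (adjusted p = 0.0012) without the library that went against its label.

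Among 70 kDa members, emFS18.1784 rose in roots at every time. It had 12.6, 19.3 and 15.9 FPKM in tolerant control roots and 309, 244 and 395 FPKM at 8 h, a log2 change of 4.22 (SE 0.30, adjusted p = 4.13e-11), and of 4.22 also without the library that went against its label. In sensitive roots it had 21.1, 25.8 and 17.4 FPKM in controls and 141, 218 and 337 FPKM at 8 h, a log2 change of 3.31 (SE 0.30, adjusted p = 2.86e-09). The Hsp70-8 gene emOS55.263 was near 0 in root controls and reached 26.7, 30.9 and 39.7 FPKM at 48 h in sensitive roots (log2 change 4.98, SE 0.51, adjusted p = 2.7e-08).

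Changes of the 90 kDa family in roots were mostly under the fold threshold. A single member, HSP82 (emOS146.76), was called higher, in tolerant roots at 8 h and 12 h, and not without the libraries that went against their labels. At an unadjusted p under 0.05, 8 of the 10 members tested were higher and 1 lower at 1 or more times in tolerant roots, and 8 were higher at 48 h. The family held 0.0771 to 0.0831% of the summed FPKM in tolerant control roots and 0.101 to 0.123% at 48 h, which did not overlap. In sensitive roots limma called none of the 10 at any time, while at an unadjusted p under 0.05 4 were higher and 6 lower at 1 or more times. The sensitive shares of 0.103 to 0.111% in controls and 0.0965 to 0.136% at 48 h overlapped. The HSP81-1 gene emOS55.1253 had 159.8, 172 and 169 FPKM in tolerant control roots and 238, 139 and 179 FPKM at 8 h, and those ranges overlapped.

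In either direction and at 1 or more times, 32 of 48 members were called in tolerant leaves (26.4% of all genes) and 31 in sensitive leaves (27.6%), and 22 of 49 in tolerant roots (19.2%) and 15 in sensitive roots (23.1%). Across the 4 courses, drawn with all libraries, 12 of the 48 members tested in both tissues (25%) were called higher in every one. They were 9 small and 3 of 70 kDa, against 3.4% of all genes tested in both. The small ones were emFS24.70, emFS24.71, emOS55.429, emOS55.430, emOS36.358, emFS21.254, emFS18.1271, emFS22.1039 and emOS174.272, and the 70 kDa ones were emFS18.1784, emOS55.263 and emOS55.634. Of the 49 members tested in any tissue, 37 were called in at least 1 course and 12 in none (3 small, 7 of 70 kDa and 2 of 90 kDa). Without the 6 libraries emFS6.892, which was among these 12, was called higher in tolerant roots at 12 h. The deposited annotation gave the Gene Ontology term for response to heat to 20 of the 54. Of these, 15 were called higher in tolerant leaves, while of the 34 without the term 14 were. All members not tested in leaf lacked the term. The small class made up 13 of the 20 with the term and 7 of the 34 without it.

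Control plants were compared between tissues in a fit of all 72 libraries. In tolerant plants 8 members were higher in root and 4 higher in leaf, against 13.2% and 10.7% of all genes tested, and in sensitive plants 6 and 3, against 10.3% and 13.9%. With a median-ratio scaling between libraries the tolerant counts were 4 and 5. The mitochondrial gene emOS36.514 stood out, with 142, 137 and 129 FPKM in tolerant control roots against 1.36, 1.89 and 1.48 FPKM in leaves, a log2 difference (root minus leaf) of 5.74 (SE 0.48, adjusted p = 4.29e-15). In sensitive plants it was 5.41 (SE 0.48, adjusted p = 4.01e-14). The cognate gene emOS55.621 differed by 4.79 and 5.42. At 24 h of salt both genes were above their root control levels in all 3 tolerant leaves.

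The same 4 HSP81-1 genes (emFS0.194, emFS0.195, emFS0.196 and emOS55.1253) were higher in control roots in both accessions, emFS0.195 by 1.89 and 1.85. In tolerant plants emFS12.311 was higher by 1.74 and the peroxisomal gene emOS49.181 by 1.65, the latter not past the threshold without tolerant root control replicate 2 (1.47). With the median-ratio scaling, tolerant calls were lost for emFS0.194 (1.24), emFS0.196 (1.34), emFS12.311 (1.43) and emOS49.181 (1.38), all of which kept their direction. Several genes for chloroplast proteins were lower in control roots. The chloroplast Hsp90 gene emFS0.124 differed by -1.88 in tolerant and -1.69 in sensitive plants, emFS0.125 by -1.80 and -1.77, and in tolerant plants emOS91.335 by -1.85 and the stromal gene emFS25.3 by -1.62. The class I gene emFS7.39 differed by -1.62 in sensitive plants, and not past the threshold without sensitive leaf control replicate 1 (-1.14) or replicate 2 (-1.49).

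The difference between tissues in the salt response was tested directly, as the leaf change minus the root change. At 24 h the leaf response was higher for 17 members and lower for 2 in tolerant plants (background 6.51% and 6.04%). In sensitive plants it was higher for 23 and lower for 1 (background 6.84% and 8.27%). The mitochondrial gene emOS36.514 differed by 7.44 (SE 0.68, adjusted p = 2.11e-12) in tolerant and 8.13 (SE 0.68, adjusted p = 1.25e-13) in sensitive plants.

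At 8 h the direction was the opposite. The leaf response was lower than the root response for 10 members in tolerant plants (background 6.17%), for 9 without the libraries that went against their labels, and for 6 in sensitive plants (background 5.13%). It was called higher for none, with 1 member in tolerant and 2 in sensitive plants higher at an unadjusted p under 0.05 (limma). The sensitive count of lower responses was 3 without sensitive leaf 8 h replicate 1. The gene emOS174.272 had the largest such difference, -4.41 (SE 1.12, adjusted p = 0.00182) in tolerant and -4.54 (SE 1.12, adjusted p = 0.00202) in sensitive plants. Without the libraries that went against their labels the tolerant difference was -5.35.

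At 12 h the counts were smaller. The leaf response was higher for 1 and lower for 6 members with the libraries labelled tolerant leaf 12 h (background 9.42% and 5.62%), and for 1 and 4 in sensitive plants (7.13% and 4.7%). Without tolerant leaf control replicate 1 the tolerant count of lower responses was 3, without leaf 12 h replicate 2 it was 4, and without root 12 h replicate 2 the count of higher ones was 0. The sensitive count of lower ones was 2 without leaf 12 h replicate 2, any root control or root 12 h replicate 1. At 48 h it was higher for 17 and lower for 1 in tolerant (7.28% and 4.4%) and 15 and 1 in sensitive plants (4.49% and 3.09%). At 5 days the counts were 12 and 1 in tolerant (3.14% and 3.62%) and 15 and 1 in sensitive plants (4.43% and 5.38%). In all, 29 of 49 members in tolerant (28.7% of all genes) and 27 in sensitive plants (27.4%) responded differently in the tissues at 1 or more times.

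**Figure D5:**
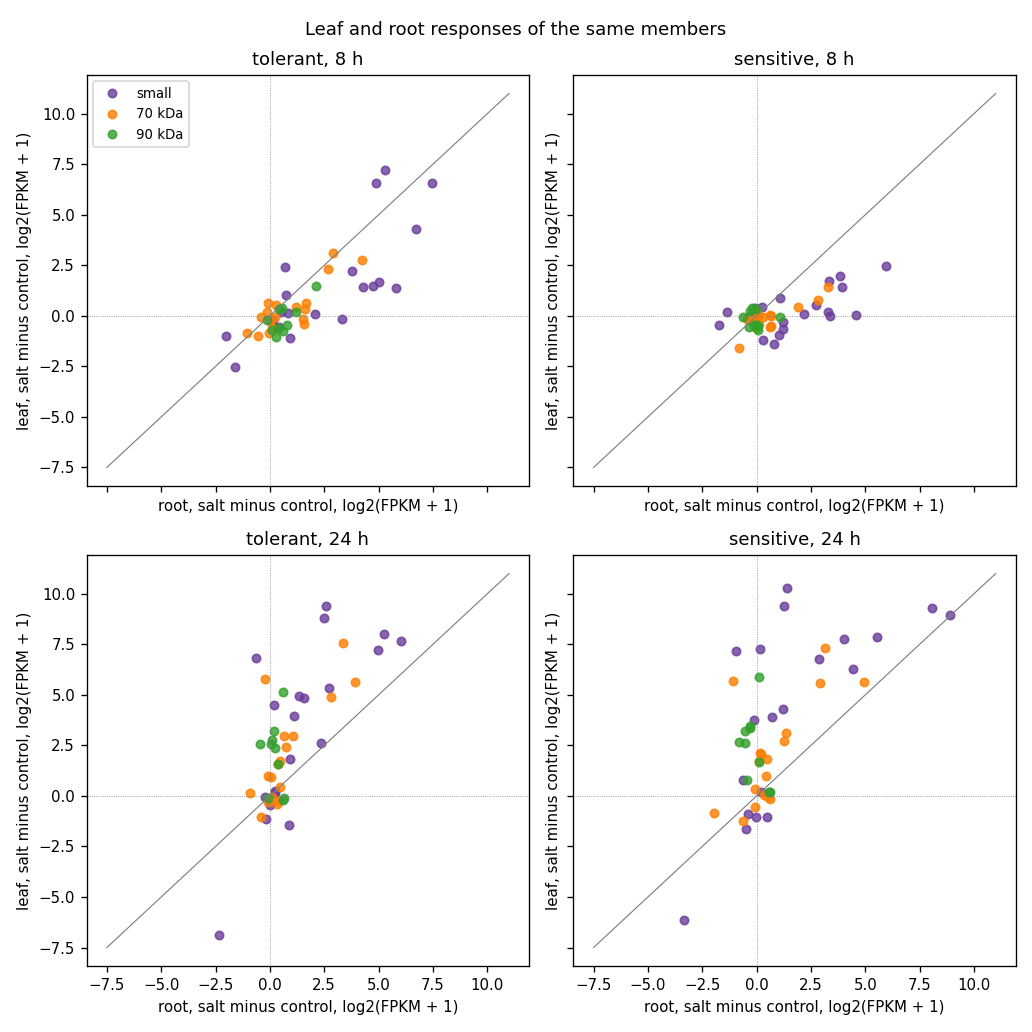
Log2 change from control in root (horizontal axis) against leaf (vertical axis) for each heat shock gene, at 8 h and 24 h, in both accessions; the diagonal marks equal change. At 8 h 10 members in tolerant and 6 in sensitive plants had a leaf change called below the root change, and at 24 h 17 and 23 had it called above.

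Within a tissue, 24 h was compared with 8 h of salt, which needs no control. In leaves 22 members were higher at 24 h in tolerant plants (background 5%), 21 without the library that went against its label, and 30 in sensitive plants (4.89%). The class V gene emOS91.1155 was the 1 member lower in each (5.34% and 7.57%). The gene emOS36.514 differed by 5.80 (SE 0.53, adjusted p = 2.96e-09) in tolerant and 7.16 (SE 0.53, adjusted p = 3.91e-11) in sensitive leaves. The tolerant value was 6.44 without the library that went against its label. In tolerant roots 12 members were lower and 1 higher at 24 h (background 1.64% and 1.3%). Without the library that went against its label these were 11 and 2. The lower count was 6 without tolerant root 8 h replicate 3 or 24 h replicate 1 and 7 without 24 h replicate 3. In sensitive roots 6 were higher and 4 lower (background 2.31% and 2.72%).

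The accessions were compared at each time, which addresses whether the tolerant and the sensitive plants differed in these chaperones. In control plants no member was called in leaf or root by limma, although 8 of 48 in leaf and 11 of 49 in root had an unadjusted p under 0.05. In leaf none was called at 48 h either, nor with the libraries labelled tolerant leaf 12 h. In each of these comparisons 8 of 48 had an unadjusted p under 0.05. Those 12 h libraries carried the pattern of the sensitive accession, so their comparison cannot show whether the accessions differed at 12 h. At 5 days 2 members were lower in tolerant leaves (background 0.9%). The HSP81-1 gene emFS0.197 had 13.8, 16.7 and 6.85 FPKM against 53.2, 54.3 and 36.6 FPKM, a log2 difference (tolerant minus sensitive) of -1.93 (SE 0.28, adjusted p = 3.5e-05). It was also the 1 member called at 24 h (-1.63, SE 0.28, adjusted p = 0.000288, background 0.843%). The Hsp70-15 gene emFS26.224 differed by -1.86 (SE 0.31, adjusted p = 0.000214) at 5 days.

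At 8 h in leaf 2 chloroplast genes were higher in tolerant plants (background 3.12%) and 1 member was lower (2.29%). The gene emOS55.430 had 714, 78.2 and 104 FPKM in tolerant and 3, 12.3 and 1.89 FPKM in sensitive leaves, with the first tolerant value from the library that went against its label, and the remaining values did not overlap. The log2 difference was 5.08 (SE 1.29, adjusted p = 0.00711), and without the 6 libraries 4.09 (adjusted p = 0.069). The adjacent emOS55.429 differed by 5.33 (SE 1.27, adjusted p = 0.00435), and by 4.33 (adjusted p = 0.0481) without them. The class V gene emOS91.1155 was lower in tolerant leaves at 8 h, at -1.63 (SE 0.49, adjusted p = 0.0221), and was not called without tolerant leaf 8 h replicate 1 (-1.44) or replicate 3 (-1.60), or without sensitive leaf 8 h replicate 1 (-1.47) or replicate 2 (-1.60).

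In roots the called differences between accessions were of higher values in tolerant plants at 8 h and mostly of lower values from 24 h on. At 8 h, 6 members, all of the small class, were higher in tolerant roots (background 1.67%), and 4 without the libraries that went against their labels. Leaving out tolerant root 8 h replicate 1 gave 3, replicate 2 gave 10, replicate 3 gave 2, and sensitive root 8 h replicate 1 gave 2. The 16.6 kDa gene emFS24.66 had 5.73, 10.9 and 13.4 FPKM in tolerant and 0.56, 2.34 and 1.43 FPKM in sensitive roots, a log2 difference of 2.17 (SE 0.38, adjusted p = 0.000549). The class II gene emFS18.1271 differed by 2.12 (SE 0.49, adjusted p = 0.00626). Without the library that went against its label these were 2.49 and 2.1, and the calls of emOS55.429 (1.87, adjusted p = 0.0515) and emFS22.1039 (1.43, adjusted p = 0.0971) were lost. At 12 h emFS24.66 was the 1 member called, higher by 2.00 (SE 0.38, adjusted p = 0.00196) in tolerant roots (background 0.536%), and 3 were called without the libraries that went against their labels, emFS24.66 (2.47), emFS6.891 (1.65) and emFS6.892 (2.48).

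The 16.9 kDa class I gene emFS24.71 was lower in tolerant roots at 24 h, 48 h and 5 days. At 24 h 3 members were lower (background 1.81%) and 1 higher (4.28%), and without sensitive root 24 h replicate 1 these were 2 and 0. The lower count was 5 without tolerant root 24 h replicate 2 and 2 without replicate 3. The higher gene, emOS174.272, lost its call without tolerant root 24 h replicate 1 or 2 or sensitive root 24 h replicate 1 or 2 (1.23 to 1.58). The gene emFS24.71 had 37.8, 99.3 and 34.8 FPKM in tolerant and 798, 817 and 768 FPKM in sensitive roots at 24 h, which did not overlap, a log2 difference of -3.94 (SE 0.62, adjusted p = 5.83e-05). At 48 h it was -3.26 (SE 0.62, adjusted p = 0.000828) and at 5 days -4.17 (SE 0.62, adjusted p = 4.3e-05). Its neighbour emFS24.70 differed by -2.99 (SE 0.71, adjusted p = 0.00378) at 24 h. Both genes were lower at 5 days, as the 2 members called (background 1.11%), emFS24.70 at -2.77 and not without sensitive root 5 day replicate 3 (-1.65). At 48 h emFS24.71 was the 1 member lower (0.942%). There emFS24.70 differed by -2.28 (adjusted p = 0.0566). The class II gene emFS18.1271 reversed its 8 h difference, with 15.2, 32.7 and 9.32 FPKM in tolerant and 65, 64.4 and 48.5 FPKM in sensitive roots at 24 h, a log2 difference of -1.75 (SE 0.49, adjusted p = 0.0127). That call was lost without tolerant root 24 h replicate 3 (-1.36) or sensitive root 24 h replicate 1 (-1.68).

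Over all time points 5 of 48 members differed between accessions by label in leaf (9.41% of all genes) and 8 of 49 in root (10.9%). The leaf shares include the 12 h comparison, which cannot compare the accessions.

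Whether the salt response itself differed between accessions was tested as the tolerant change minus the sensitive change. In leaf 1 member was called, emOS55.429 at 8 h with 6.0 (SE 1.80, adjusted p = 0.0391) (background 1.63%). The leaf test at 12 h used the libraries labelled tolerant leaf 12 h and so cannot compare the accessions. Without the 6 libraries none was called in leaf by limma at 8 h, 24 h, 48 h or 5 days. At 8 h, 7 of 48 then had an unadjusted p under 0.05. In root emFS24.71 was called at 24 h (-3.67, SE 0.88, adjusted p = 0.016) and 5 days (-3.90, SE 0.88, adjusted p = 0.0294), emFS18.1271 at 24 h (-2.87, SE 0.70, adjusted p = 0.0175) and emFS24.66 at 8 h (2.11, SE 0.54, adjusted p = 0.037). The background was 0.829% lower at 24 h, 0.189% lower at 5 days and 1.03% higher at 8 h. Without the 6 libraries emFS24.66 was called at 8 h (2.42, adjusted p = 0.00847) and also at 12 h (2.41, adjusted p = 0.0143). At 1 or more times this is 1 of 48 members in leaf and 3 of 49 in root, against 5.8% and 3.13% of all genes. None of these calls held in every test that left out 1 library.

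The leaf call of emOS55.429 was lost without any single library among tolerant leaf control replicates 1 to 3, tolerant leaf 8 h replicate 1, sensitive leaf control replicates 1 and 2 and sensitive leaf 8 h replicates 1 and 3 (5.00 to 6.22). In root the 24 h call of emFS24.71 was lost without tolerant root 24 h replicate 3 (-3.40) or sensitive root control replicate 3 (-3.44). Its 5 day call was lost without any of the tolerant root controls, tolerant root 5 day replicate 1 or 2, sensitive root control replicate 2 or 3 or sensitive root 5 day replicate 3 (-4.08 to -2.96). The emFS18.1271 call was lost without tolerant root 24 h replicate 3 (-2.48), sensitive root control replicate 2 (-2.69) or sensitive root 24 h replicate 1 (-2.80). The emFS24.66 call was lost in all such tests but those without tolerant root 8 h replicate 1 or sensitive root 8 h replicate 2 (1.82 to 2.17). No log2 difference changed sign in these tests.

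Partner genes of the chaperones were read from lists of names. Beside their counts at 1 or more times, 15.3% of all genes were higher and 11.7% lower in tolerant leaves, 10.4% and 17.5% in sensitive leaves, 9.77% and 9.46% in tolerant roots and 11.9% and 11.4% in sensitive roots. Of the disaggregases ClpB (Hsp100) and ClpC, 8 were tested in leaf, and 3 were higher in tolerant and 4 in sensitive leaves at 1 or more times. Their median log2 change at 24 h was 0.69 in tolerant and 0.92 in sensitive leaves, where the median of all genes was -0.18 and -0.57. The ClpB1 gene emFS1.40, which in plants acts with small and 70 kDa chaperones to dissolve aggregates, changed by 7.12 (SE 0.59, adjusted p = 2.68e-10) in tolerant leaves at 24 h and 3.11 (SE 0.38, adjusted p = 3.4e-07) in tolerant roots at 8 h, and by 3.14 there without the library that went against its label. The partner genes with values here were picked knowing those values.

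Of 27 heat stress transcription factors, 11 were higher and 4 lower in tolerant leaves at 1 or more times, 9 and 6 in sensitive leaves, 8 and 3 in tolerant roots and 7 and 3 in sensitive roots. Without the 6 libraries the tolerant counts were 11 and 2 in leaves and 6 and 4 in roots. The factor A-2a (emOS99.869), of the group that activates chaperone genes in prolonged stress in Arabidopsis, changed by 5.50 (SE 0.77, adjusted p = 2.34e-06) in tolerant roots at 8 h (5.32 without the library that went against its label) and by 3.74 in tolerant leaves at 24 h. The class B factor B-2b (emOS173.169) changed by 7.10 (SE 0.35, adjusted p = 1.51e-14) in sensitive leaves at 24 h.

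Of 34 nucleotide exchange factors and co-chaperones tested, 8 were higher and 1 lower in tolerant leaves and 7 and 6 in sensitive leaves. The Hsp90 co-chaperone FKBP62 (emFS14.70) changed by 7.25 (SE 0.64, adjusted p = 9.43e-10) in sensitive leaves at 24 h. Among DnaJ proteins, which deliver substrates to Hsp70, 15 of 76 were higher and 8 lower in tolerant leaves and 4 and 7 of 77 in tolerant roots, and without the 6 libraries the lower counts were 6 and 6. The list of folding proteins of the endoplasmic reticulum left out genes named heat shock. Among those left out, the BIP2 gene emOS99.1113 was called higher in sensitive leaves and in tolerant roots. Of the 28 tested on the list, limma called none higher in any course. It called 3, 2, 0 and 2 lower in tolerant leaf, sensitive leaf, tolerant root and sensitive root. At an unadjusted p under 0.05, 12, 8, 3 and 5 were higher at 1 or more times. Chaperonins were called higher in 1 and lower in 5 of 31 in tolerant leaves and in 2 and 5 in sensitive leaves.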

How the data were processed

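The authors deposited 1 table of FPKM values per gene for the salt experiment, with Swiss-Prot names, Gene Ontology terms and coordinates. Per the methods, reads were trimmed and aligned to a reference genome before normalisation, which is described there as RPKM. The submitters' processing notes name Trimmomatic 0.32 and HISAT2 2.1.0. No source used here names the counting tool, the genome build or the use of strand. Read depth is unknown, so the FPKM cannot be given a counting error.

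The values are not counts, so a count model was not used, and limma 3.58.1 (R 4.3.3) with a trend was run on log2(FPKM + 1), with the thresholds of the methods. Each tissue was 1 fit of 36 libraries in 12 groups, and the tissue comparisons were 1 fit of 72. Tests were two-sided with Benjamini-Hochberg adjustment over all genes tested within a contrast (22551 in leaf, 22194 in root and 23933 in both). A gene entered a test if 3 or more libraries of the fit reached 1 FPKM. The steps were first tested on simulated data. Tables and plots used Python 3.11.15 with pandas 2.3.3, numpy 2.4.6 and matplotlib 3.10.9. A replicate is a pool of plants, and p-values measure the spread between these libraries.

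Named genes were, for each salt course, up to 6 called genes with the largest rise and up to 6 with the largest fall whose libraries at that time did not overlap the controls. For the other comparisons up to 5 in each direction were taken, with the 2 genes of highest mean FPKM in each class and tissue. Other members are named for completeness after their values were seen. The members and the gene lists were chosen with earlier results of these data known. The comparison of 24 h with 8 h, the test of the difference between tissues in the salt response and the fits without 6 libraries were added after seeing the data.

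The alternatives were pseudocounts of 0.1 and 5, no filter, a filter at a mean of 5 FPKM, 2 rescalings of the libraries, a fold threshold of 1 on the log2 scale, a replicate block, fits of only the libraries compared, array weights and leaving out each library. In the check of the accession labels, genes counted as typical of an accession had at least 5 FPKM in it and at most 0.3 FPKM in the other accession.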

Additional observations from a re-analysis of the deposited data

Results flagged for a closer look

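The salt response was tested between accessions as the difference itself (the tolerant minus the sensitive log2 change, limma). It was called for 1 of 48 members in leaf and 3 of 49 in root, against 5.8% and 3.13% of all genes tested. In leaf this was emOS55.429 at 8 h (6.0), which was not called without the 6 libraries that went against their labels. In root these were emFS24.66 at 8 h (2.11, and 2.42 without those libraries), emFS18.1271 at 24 h (-2.87) and emFS24.71, whose difference at 5 days was -3.90. The libraries whose removal ended each of these calls are named with the results.

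The salt response differed between tissues (leaf minus root log2 change) for 29 of 49 members in tolerant and 27 in sensitive plants. Over all genes tested the shares were 28.7% and 27.4%. Above 0 in tolerant plants were emOS55.430 at 5 days (7.91), emOS36.514 at 24 h (7.44), emOS55.429 at 5 days (7.25), emFS22.1039 at 48 h (6.20) and emOS55.621 at 24 h (6.04). Below 0 were emOS91.1155 at 24 h (-4.52), and at 8 h emOS174.272 (-4.41), emFS24.66 (-3.47), emFS21.254 (-3.38) and emOS36.358 (-3.29). Without the libraries that went against their labels these 8 h values were -5.35 for emOS174.272, -4.02 for emFS24.66, -3.99 for emFS21.254 and -3.56 for emOS36.358.

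In sensitive plants the differences above 0 at 24 h were 8.91 for emOS55.430, 8.13 for emOS36.514, 8.12 for emOS55.429, 7.08 for emFS22.1039 and 6.77 for emOS55.621. Those below 0 were emFS24.71 at 12 h (-4.62), emOS174.272 at 8 h (-4.54), emFS21.254 at 8 h (-3.36), emFS18.1271 at 12 h (-3.20) and emOS91.1155 at 24 h (-2.82).

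Single libraries decided 3 of these calls. The tolerant emFS21.254 call was lost without tolerant leaf control replicate 1 (-3.22), leaf 8 h replicate 2 (-2.72), root control replicate 2 (-3.19) or root 8 h replicate 3 (-3.03). The sensitive emFS21.254 call was lost without any sensitive control library, any sensitive leaf 8 h library or root 8 h replicate 2 or 3 (-3.44 to -2.80). The sensitive emFS24.71 call at 12 h was lost without leaf control replicate 3, leaf 12 h replicate 1 or 2, any root control or root 12 h replicate 1 or 3 (-4.74 to -3.31). With 3 libraries in each group, single outlying libraries were not tested for.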

How the results depend on the processing

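The counts of members called at 1 or more salt times were 32, 31, 22 and 15 in tolerant leaf, sensitive leaf, tolerant root and sensitive root. Leaving out 1 library gave 30 to 34, 30 to 33, 19 to 23 and 15 to 17, and only a fold threshold of 1 moved one of them by over 1.5 times (sensitive root, 24). Without the 6 libraries against their labels the 4 counts were 30, 31, 21 and 15, and the tolerant tissue difference in the response was called for 26 members against 29. The counts of differences between accessions moved more. In leaf, 5 members differed between accessions, 4 to 7 without 1 library, 16 with array weights and 3 without the 6 libraries against their labels. In root 8 differed, 5 to 12 without 1 library (5 without tolerant root 8 h replicate 3 or sensitive root 8 h replicate 1), 17 at a fold threshold of 1 and 4 in fits of only the libraries compared. The accession difference in the leaf response was called for 1 member, for 3 with a pseudocount of 0.1, for 2 when libraries were scaled to a sum of 1000000, by median ratios or filtered at a mean of 5 FPKM. It was called for 4 in fits of only the libraries compared, for 14 with array weights and for 0 to 3 without 1 library. Without the 6 libraries it was called for 0, with 7 at an unadjusted p under 0.05 at 8 h (limma). In root it was called for 3, for 1 with a pseudocount of 0.1, for 8 with array weights and for 1 to 4 without 1 library (1 without sensitive root control replicate 2 or 3). The cause of these changes was not tested.

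The tissue difference in control plants was called for 12 members in tolerant (11 to 13 without 1 library) and 9 in sensitive plants (8 to 12, and 15 with a pseudocount of 0.1). The tissue difference in the response ran from 27 to 32 in tolerant and 24 to 29 in sensitive plants without 1 library. For 24 h against 8 h these ranges were 21 to 24, 30 to 31, 7 to 13 and 8 to 10 in tolerant leaf, sensitive leaf, tolerant root and sensitive root. Tolerant root had 8 with a mean of at least 5 FPKM against 13, and sensitive root 6 with a pseudocount of 5 against 10. Median-ratio scaling turned 6 higher and 3 lower into 3 and 4 for the accession difference in root. It gave 0 higher and 2 lower for the accession difference in the response in leaf, against 1 and 0.

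With a replicate block the 4 salt course counts were 32, 31, 22 and 15, no named call was lost, and the leaf accession difference in the response rose from 1 to 2 members. Within a tissue, libraries of the same number had a median correlation of their deviations of -0.0141 in leaf and 0.0019 in root. For libraries of different numbers it was 0.0093 and 0.0056. Single correlations ran from -0.6334 to 0.7118 in leaf and from -0.4698 to 0.4513 in root. Leaf and root libraries of the same number were not compared, so a pairing between the tissues was not tested. Over all alternatives 134 values of named genes lost their call, 3272 kept it and none changed sign. With 3 libraries a group and no read depth, small differences between accessions could not be resolved.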
